A study of Mus musculus with 32 samples.

Results

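The genes described here are 43 complement and coagulation factors, taken by gene symbol from the 41585 gene entries of the liver count tables. They are the 3 C1q chains, 2 C1 proteases, 4 lectin pathway genes, 6 genes of the C3 and C5 convertases and their control, 6 terminal pathway genes, 3 fibrinogen chains, 6 vitamin K-dependent factors, 4 other coagulation factors, 3 genes of the contact and kinin system, and 6 inhibitors and fibrinolysis genes. Hepatocytes make 39 of them, and the C1q chains are macrophage products. The remaining gene, Cfd (adipsin), is known chiefly as an adipocyte product, and these sets were kept apart. RNA was sequenced from livers of male and female C57BL/6J mice (also the background of the null line) that were 10 weeks old at the start and were fed for 8 weeks. The mice received either normal chow (ND) or CDAHFD, a high-fat feed (62% fat, 0.1% methionine) that is free of choline, holds its protein as L-amino acids and produces a fatty, inflamed and scarring liver. Wildtype (WT) mice were compared with Cyp2b9/10/13-null (Cyp2b-null) mice, a CRISPR/Cas9 line that lacks the hepatic Cyp2b9, Cyp2b10 and Cyp2b13 genes. This gave 8 groups of 4 libraries, namely ND-fed WT, CDAHFD-fed WT, ND-fed Cyp2b-null and CDAHFD-fed Cyp2b-null mice of each sex. The WT mice were purchased and the Cyp2b-null mice came from the study's own line, so the origin of the mice and the genotype cannot be told apart.

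Complement is a cascade of plasma proteins that marks and lyses targets. C1q and the mannose-binding lectins recognise surfaces, serine proteases then assemble the enzymes that cleave C3 and C5, and C5b gathers C6, C7, C8 and C9 into the pore called the membrane attack complex. Coagulation is a parallel cascade in which factor VII starts and thrombin completes the conversion of fibrinogen to fibrin, held in check by antithrombin, heparin cofactor II and protein C, and undone by plasmin. The liver secretes nearly all of these proteins, so their transcripts are used as a readout of hepatocyte secretory function, and many of them are also acute-phase genes.

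The libraries held 2906411 to 10166959 counts on genes. Values are CPM on 1 scale for all 32 libraries, where read counts were scaled to library size times a trimmed-mean (TMM) factor. They are thus not scaled by library size alone, and overlap between groups refers to these values. Changes are log2 fold changes of CDAHFD over ND unless another comparison is named. A gene was called when its p-value from edgeR's quasi-likelihood test, Benjamini-Hochberg adjusted over all genes tested, was under 0.05. Of the 43 members, 42 passed the filter on low counts in females (all but Cfd), and 43 passed in males. Cyp2b9 had 2 to 18 counts in the Cyp2b-null libraries against at least 683 in WT females and at least 118 in CDAHFD-fed WT males. In ND-fed males the genotype label could be checked by Cyp2b10 alone (33 to 97 counts against 1 to 9 in the null libraries). Among 12 hepatocyte markers (Alb, Trf, Apoa1 and Ahsg had the highest levels), the diet lowered 8 and raised 1 in WT females and lowered 9 and raised 2 in WT males. Their summed level ran from 165000 to 235000 CPM in ND-fed and from 123000 to 142000 CPM in CDAHFD-fed WT females, and from 146000 to 163000 CPM against 92800 to 151000 CPM in WT males. In Cyp2b-null mice it ran from 172000 to 210000 CPM on ND and 108000 to 169000 CPM on CDAHFD in females, and from 134000 to 152000 CPM and 86100 to 124000 CPM in males. The part of these markers in the falls of the hepatocyte-made factors was not tested. In bulk liver RNA, fewer cells of a type and less RNA per cell cannot be told apart.

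With counts scaled to the trimmed mean of all genes, CDAHFD lowered more of the members than it raised in every sex and genotype. In WT females 25 of the 42 members tested were called, 7 higher (background 13.9% of the 13226 genes tested) and 18 lower (background 10.2%). In Cyp2b-null females 25 were called, 8 higher (background 16.9%) and 17 lower (background 13.9%). In WT males 28 of 43 were called, 3 higher (background 18.0% of 13460 genes) and 25 lower (background 15.0%), and in Cyp2b-null males 32 were called, 3 higher (background 20.3%) and 29 lower (background 17.1%). The median log2 change of the members was −0.27 in WT females, −0.25 in Cyp2b-null females, −0.45 in WT males and −0.42 in Cyp2b-null males, where the median of all genes lay between −0.023 and 0.027. Among the 39 hepatocyte-made factors, 4 rose and 18 fell in WT females, while 0 rose and 24 fell in WT males. The corresponding counts in Cyp2b-null mice were 5 and 17 in females and 0 and 28 in males. Among the CDAHFD-fed Cyp2b-null females, replicate 3 had the highest hepatocyte marker sum (169100 CPM) and C1q sum. Without it and the male replicate 4, which the study's heat maps do not show, the members called were 27 in WT females, 26 in Cyp2b-null females, 28 in WT males and 32 in Cyp2b-null males.

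These directions depend on the scaling. When the libraries were scaled by their size alone, the median of all genes itself moved up by 0.317 in WT females, 0.282 in Cyp2b-null females, 0.371 in WT males and 0.365 in Cyp2b-null males. Under that scaling the members called were 12 higher (background 29.6%) and 6 lower (background 3.71%) in WT females, and 10 (30.4%) and 7 (5.04%) in Cyp2b-null females. In males they were 8 higher (background 38.0%) and 13 lower (4.31%) in WT, and 9 (38.3%) and 10 (6.08%) in Cyp2b-null mice. Of the members called with the trimmed mean, 13 of 25, 15 of 25, 16 of 28 and 13 of 32 were called again in the same direction. The sign turned for C1s1, F12 and Kng2 in WT males and for C1ra and Serpind1 in Cyp2b-null males. Among others, Masp2, F2, F10, F13b, Kng1, Kng2, Serpind1 and Serpinf2 were then called in no diet comparison.

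**Figure D1:**
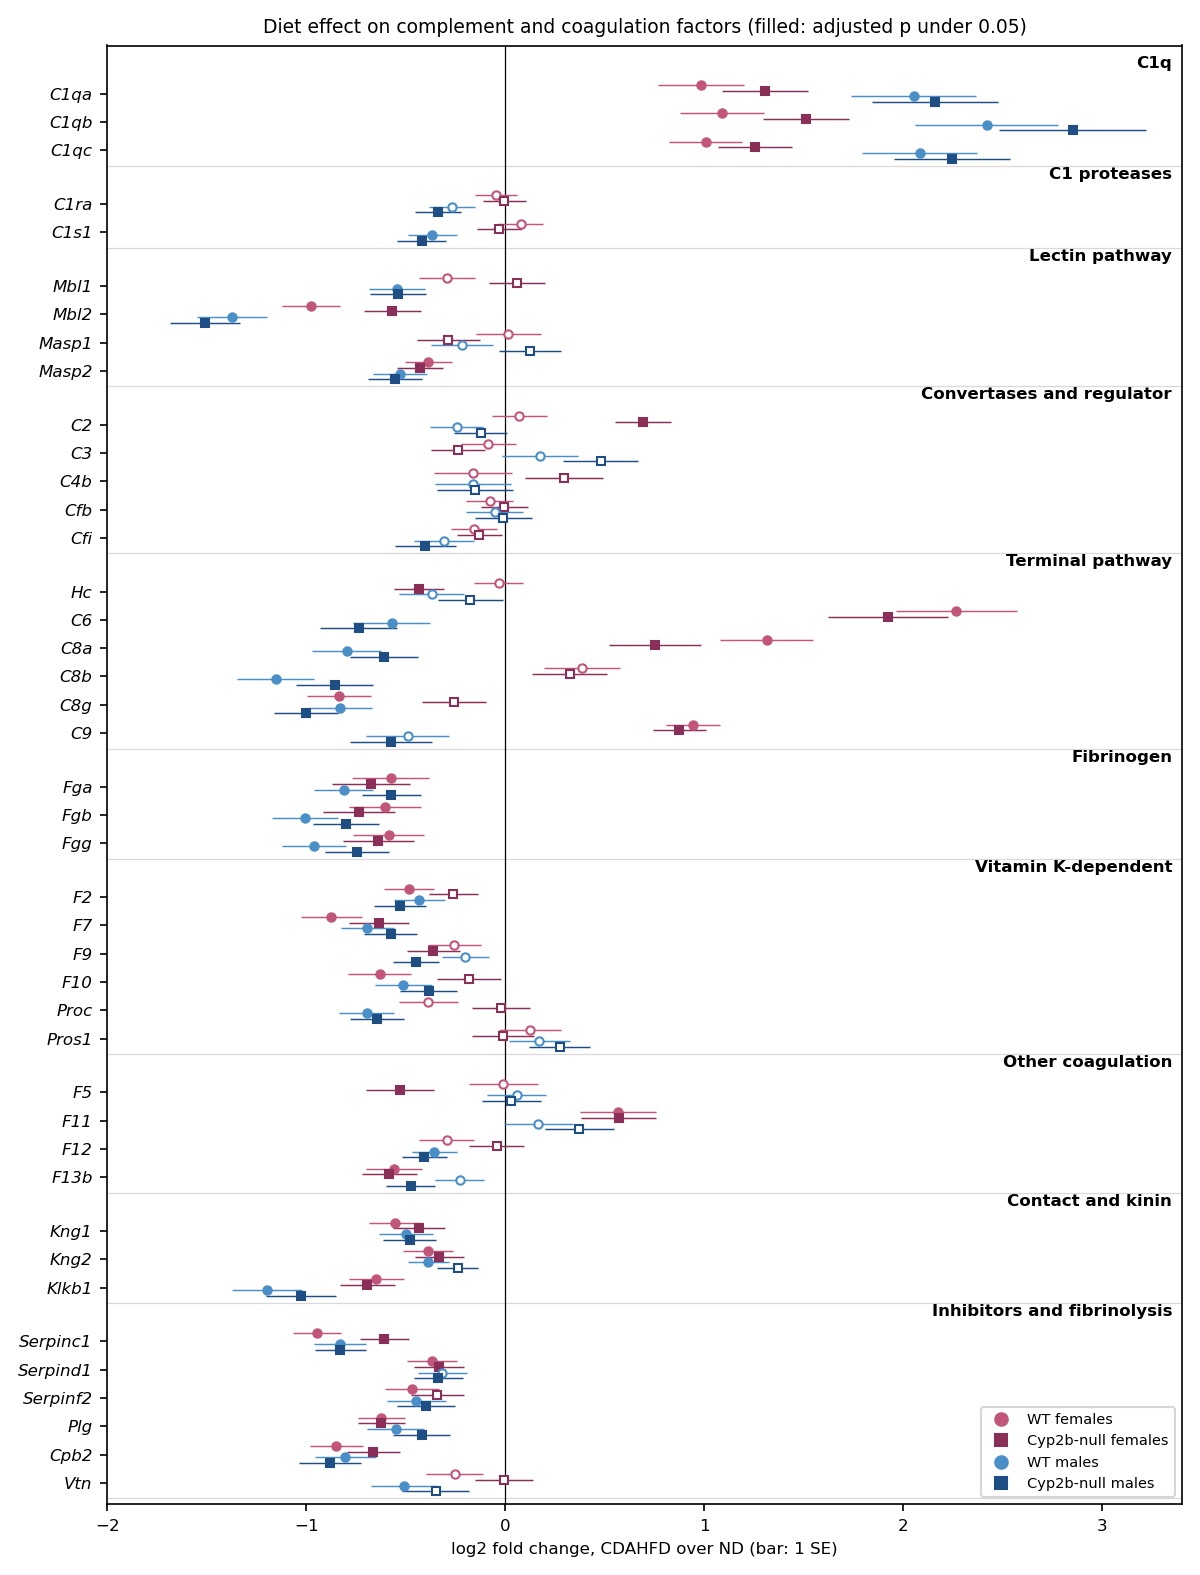
Log2 fold change of CDAHFD over ND (x axis, bar 1 SE) for 42 members grouped by role (y axis), in WT females and males (circles) and Cyp2b-null females and males (squares), with filled symbols for adjusted p under 0.05; Cfd is not drawn. The C1q chains lie to the right in all 4 comparisons, C6, C8a and C9 lie on opposite sides of 0 in females and males, and most coagulation genes lie left of 0.

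The terminal pathway genes C6, C8a, C8b and C9 were the members whose diet effect differed between the sexes in both genotypes. C6 (chr15:4727067-4804045) and C9 (chr15:6445346-6498825) encode single-chain components of the membrane attack complex, and C8a (chr4:104815679-104876487) and C8b (chr4:104766317-104804548) are neighbours that encode the alpha and beta chains of C8. The stretches before their annotated starts (RefSeq, GRCm38.p6) are shown because the diet effect of these 4 genes differed between the sexes. They are chr15:4726960-4727066 of the plus strand for C6, chr4:104876488-104876648 of the minus strand for C8a, chr4:104766067-104766316 of the plus strand for C8b and chr15:6445096-6445326 of the plus strand for C9, each 5′ to 3′ and without bases inside an annotated exon. Capitals mark GTTAAT (a half-site of HNF1, a hepatocyte factor) and TTCNNNGAA (the core of STAT sites), searched on both strands. In the first 250 bases of each promoter entry, the former was found in 6.52% of 27025 promoters and the latter in 7.18%. These windows can run past the annotated start. The printed stretches of C6, C8a and C9 were cut to 107, 161 and 231 bases, so the shares are for longer windows. The marked letters did not overlap.
C6: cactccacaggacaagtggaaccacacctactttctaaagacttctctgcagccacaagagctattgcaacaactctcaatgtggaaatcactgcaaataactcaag
C8a: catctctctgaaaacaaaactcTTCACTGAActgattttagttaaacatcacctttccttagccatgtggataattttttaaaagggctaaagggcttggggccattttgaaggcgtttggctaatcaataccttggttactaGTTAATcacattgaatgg
C8b: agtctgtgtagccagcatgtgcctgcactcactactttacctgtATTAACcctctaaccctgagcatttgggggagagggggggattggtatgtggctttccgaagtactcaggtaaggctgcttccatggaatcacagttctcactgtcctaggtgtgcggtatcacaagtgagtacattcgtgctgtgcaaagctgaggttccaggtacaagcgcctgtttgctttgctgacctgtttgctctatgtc
C9: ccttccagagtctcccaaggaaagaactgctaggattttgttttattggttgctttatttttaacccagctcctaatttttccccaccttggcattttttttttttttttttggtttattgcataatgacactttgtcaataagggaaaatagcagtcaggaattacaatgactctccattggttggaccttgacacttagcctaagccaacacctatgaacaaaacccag
The C8a stretch held 1 match of each motif, C8b held 1 of GTTAAT, and C6 and C9 held 0 of either. A match is a description of letters and not a bound site.

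In ND-fed WT livers these genes were far higher in males. C6 read 15.9, 21.8, 13.8 and 12.4 CPM in the 4 ND-fed WT females and 344, 301, 320 and 195 CPM in the 4 ND-fed WT males. The groups did not come near each other, and the male level was 18.5-fold higher (log2 difference 4.21, SE 0.298, adjusted p = 9.46e-13, edgeR). C8a was 6.69-fold higher in ND-fed WT males (adjusted p = 4.37e-11), C8b 4.48-fold (adjusted p = 1.62e-09) and C9 3.16-fold (adjusted p = 5.18e-08). In all, 16 members differed between the sexes on ND in WT mice, 10 higher in males (background 8.35% of 14020 genes) and 6 lower (background 9.45%). Per kilobase of exon, C6 had 4.60 CPM in ND-fed WT females against 87.5 for C9, 45.8 for C8a and 48.0 for C8b, so C6 was the scarcest of the 4. In ND-fed WT males the same quantity was 83.5 for C6, 276 for C9, 306 for C8a and 214 for C8b.

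CDAHFD moved C6 and C8a in opposite directions in females and males. In CDAHFD-fed WT females C6 read 39.0, 58.5, 130 and 68.4 CPM, above every ND-fed WT female, and rose 4.81-fold (log2 change 2.27, SE 0.304, adjusted p = 1.26e-05). In CDAHFD-fed WT males it read 264, 195, 201 and 120 CPM, which overlapped the ND-fed range (log2 change −0.57, SE 0.194, adjusted p = 0.0277). This male call was lost in 6 of 8 fits that left out 1 library (adjusted p up to 0.1), in the fit of both sexes and in the fit of only the groups compared, and with scaling by library size the change was −0.20. The change in Cyp2b-null females was 1.92 (SE 0.300, adjusted p = 6.07e-05), from 13.0, 18.4, 9.98 and 20.6 CPM to 69.7, 59.5, 68.3 and 42.0 CPM. In the null males it was −0.74 (SE 0.194, adjusted p = 0.00474), from 291, 383, 329 and 313 CPM to 172, 178, 200 and 238 CPM, and neither pair of null groups overlapped. The Cyp2b-null male change was −0.37 and not called with scaling by library size.

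C8a followed the same pattern. It read 170, 268, 100 and 128 CPM in ND-fed and 302, 344, 496 and 484 CPM in CDAHFD-fed WT females, a log2 change of 1.31 (SE 0.233, adjusted p = 0.000256). WT males went from 1114, 1335, 1043 and 954 CPM to 849, 723, 535 and 450 CPM (−0.80, SE 0.173, adjusted p = 0.00118). The groups did not overlap in either sex, and the CDAHFD-fed females stayed below the ND-fed males. In Cyp2b-null mice C8a rose by 0.75 in females (SE 0.230, adjusted p = 0.0172) and fell by 0.61 in males (SE 0.172, adjusted p = 0.00812). The female call was lost without the ND-fed replicate 1 or the CDAHFD-fed replicate 1 (adjusted p up to 0.0542), and the male change lost its call with scaling by library size.

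C8b fell in males and was not called in females, except with scaling by library size (0.71 in WT and 0.56 in Cyp2b-null females, adjusted p = 0.00291 and 0.0144). WT males went from 484, 508, 497 and 432 CPM on ND to 326, 210, 180 and 147 CPM on CDAHFD, a log2 change of −1.15 (SE 0.192, adjusted p = 8.27e-05) with no overlap. WT females read 106, 136, 93.6 and 94.6 CPM on ND and 102, 120, 179 and 150 CPM on CDAHFD, and the overlapping groups gave a change of 0.39 (SE 0.189, adjusted p = 0.154). C9 rose in WT females from 180, 190, 167 and 179 CPM to 296, 312, 346 and 400 CPM, a change of 0.94 (SE 0.134, adjusted p = 2.39e-05). C9 in WT males read 585, 638, 559 and 481 CPM on ND and 638, 387, 325 and 261 CPM on CDAHFD, where replicate 1 lay inside the ND range and the change of −0.49 was not called (adjusted p = 0.0763). Without that replicate it was −0.78 and called, as it was in 3 of 8 alternatives, namely without the low-count filter, with the replicate block and in the fit of both sexes (adjusted p down to 0.00586). In Cyp2b-null males the change of C9 was −0.57 (adjusted p = 0.0344), a call lost in 6 of 8 fits without 1 library.

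The sex difference of the diet effect was tested in a fit of all 8 groups. In WT mice 4 members were called, all with the lower diet effect in males (background 0.300% of 14020 genes). They were C6 (−2.81, SE 0.379, adjusted p = 2.49e-05), C8a (−2.09, SE 0.303, adjusted p = 9.15e-05), C8b (−1.52, SE 0.284, adjusted p = 0.0036) and C9 (−1.41, SE 0.257, adjusted p = 0.00249). In Cyp2b-null mice 6 were called, again all lower in males (background 1.31%). C6 differed by −2.64 (adjusted p = 7.35e-05), C9 by −1.43 (adjusted p = 0.00127), C8a by −1.34 (adjusted p = 0.00986), C8b by −1.16 (adjusted p = 0.0175), Mbl2 by −0.92 (adjusted p = 0.0226) and C2 by −0.79 (adjusted p = 0.0143). The C8b call in Cyp2b-null mice was lost without CDAHFD-fed female replicate 3 or CDAHFD-fed male replicate 3 (adjusted p up to 0.0507). All 4 and all 6 were also called with scaling by library size. Of the 12 hepatocyte markers 0 were called for this difference in either genotype, with medians of 0.123 in WT and −0.077 in Cyp2b-null mice.

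On CDAHFD the gap between the sexes was smaller. In CDAHFD-fed WT mice C6 was 2.63-fold higher in males (log2 difference 1.39, SE 0.255, adjusted p = 0.000639), C8a 1.57-fold (adjusted p = 0.0421) and C8b 1.56-fold (adjusted p = 0.0335), and C9 was not called (log2 difference 0.25). In total 7 members were called there, 5 higher in males (background 5.91%) and 2 lower (background 5.12%). C3 (0.53) and Hc (0.43) were the others called higher in males, and Kng2 (−0.34) and Mbl2 (−1.34, adjusted p = 2.97e-06) were called lower. This count fell to 2 in the fit of only the groups compared, to 4 with the replicate number as a block, and to 2 without CDAHFD-fed WT female replicate 1.

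**Figure D2:**
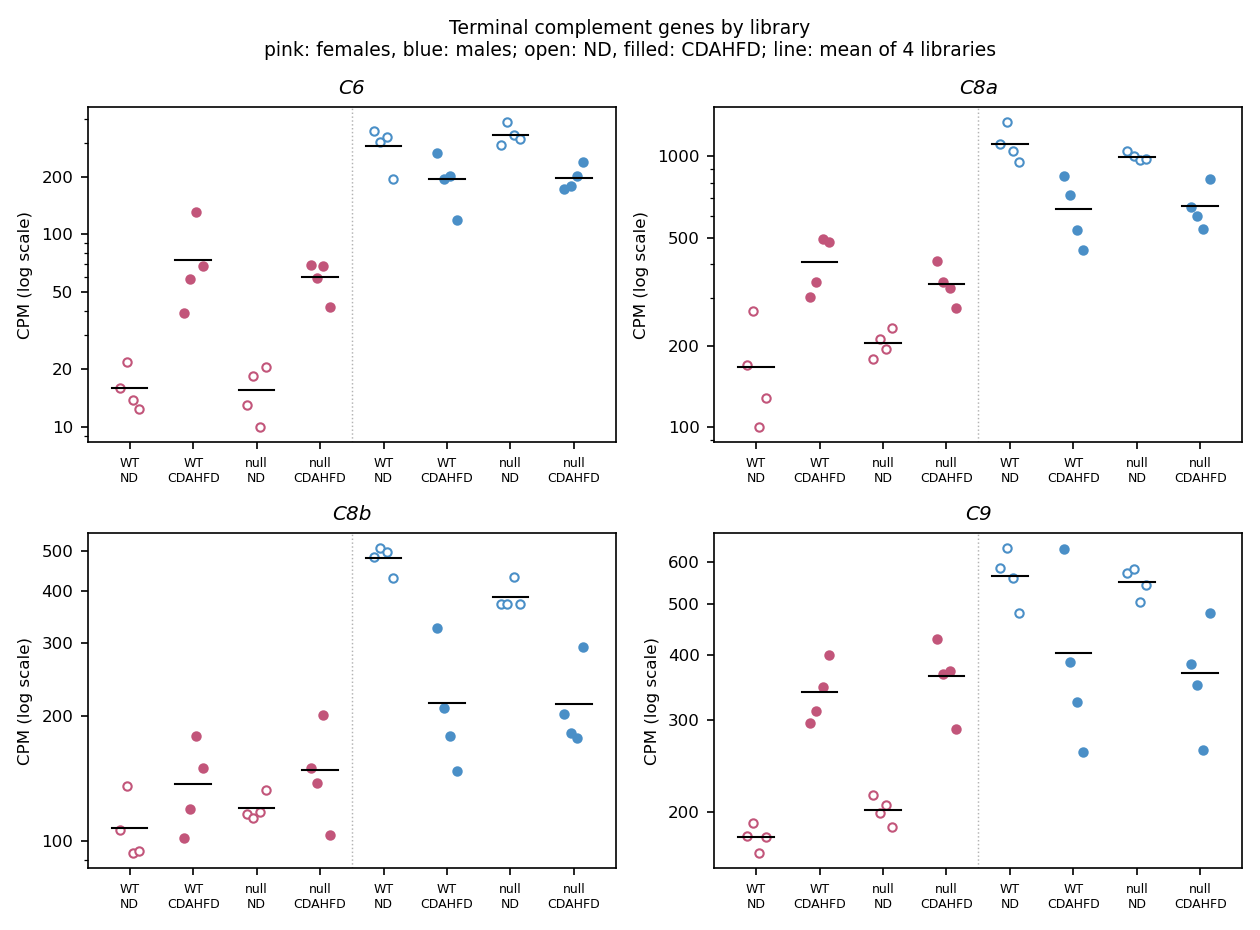
CPM (y axis, log scale) of C6, C8a, C8b and C9 in each of the 32 libraries by group (x axis), females pink and males blue, ND open and CDAHFD filled, with a line at the mean of 4 libraries. For C6 the 4 ND-fed WT females lie between 12.4 and 21.8 CPM and the 4 ND-fed WT males between 195 and 344 CPM, with the 4 CDAHFD-fed WT females between 39.0 and 130 CPM.

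The remaining terminal genes, Hc and C8g, were not called for a sex difference of the diet effect. Hc, which encodes complement C5, was 1.68-fold higher in ND-fed WT males (adjusted p = 0.000445). Its diet effect was called only in Cyp2b-null females (−0.43, SE 0.124, adjusted p = 0.0113), and not with scaling by library size (−0.17, adjusted p = 0.295). In WT males the change of Hc was called in 1 of 8 alternatives (adjusted p = 0.0451). C8g, the gamma chain of C8 and a lipocalin, fell from 398, 370, 460 and 428 CPM to 216, 260, 243 and 193 CPM in WT females (−0.84, SE 0.162, adjusted p = 0.000598). It also fell in WT males (−0.83, adjusted p = 0.000404) and in Cyp2b-null males (−1.003, adjusted p = 4.62e-05), while the change of −0.26 in Cyp2b-null females was not called (adjusted p = 0.239). The gene span of C8g overlaps that of Fbxw5, and overlap of their exons was not tested. Whether the counting used strand is not given in the sources used here, so whether reads of Fbxw5 entered its counts is uncertain.

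**Figure D3:**
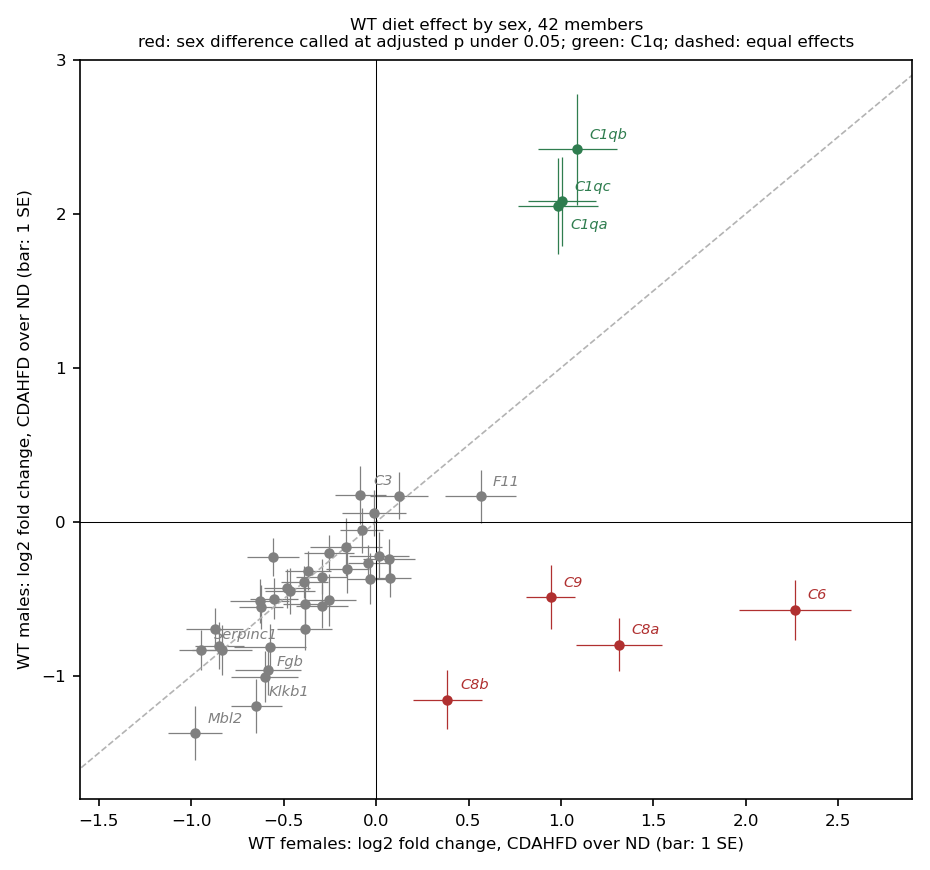
Log2 fold change of CDAHFD over ND in WT females (x axis) against WT males (y axis) for 42 members, bars 1 SE, with the dashed line where both are equal. Red points are C6, C8a, C8b and C9, whose diet effect differed between the sexes at adjusted p under 0.05, and green points are the C1q chains, whose sex difference was not called.

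The 3 C1q chains rose on CDAHFD in every group of mice. C1qa, C1qb and C1qc lie side by side on chromosome 4 (chr4:136880126-136898844 from the start of C1qb to the end of C1qa) and together form the recognition molecule of the classical pathway. C1qa read 75.7, 67.3, 61.3 and 52.2 CPM in ND-fed and 106, 118, 121 and 152 CPM in CDAHFD-fed WT females, a log2 change of 0.98 (SE 0.215, adjusted p = 0.00175). The WT males had 22.8, 15.9, 47.6 and 9.40 CPM on ND and 64.1, 87.6, 132 and 119 CPM on CDAHFD (2.05, SE 0.314, adjusted p = 3.37e-05). The groups did not overlap in either sex, and the ND-fed males spread more widely than the females.

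C1qb went from 67.4, 68.5, 52.2 and 45.2 CPM to 91.0, 115, 130 and 150 CPM in WT females (1.09, SE 0.213, adjusted p = 0.000661). WT male values went from 23.5, 11.1, 37.5 and 4.59 CPM to 59.7, 104, 141 and 114 CPM (2.42, SE 0.359, adjusted p = 2.28e-05). C1qc went from 85.1, 81.5, 76.4 and 53.6 CPM to 114, 154, 156 and 159 CPM in WT females (1.01, SE 0.183, adjusted p = 0.000334). In males of the same genotype C1qc went from 26.1, 16.1, 49.1 and 17.3 CPM to 63.7, 119, 158 and 124 CPM (2.08, SE 0.288, adjusted p = 9.9e-06). The 3 chains thus changed by like amounts within a sex and the diets did not overlap for any of them. In Cyp2b-null females the changes were 1.30, 1.51 and 1.25 for C1qa, C1qb and C1qc, and in Cyp2b-null males 2.16, 2.85 and 2.24 (adjusted p at most 0.00011). Each of these 12 changes stayed called under all 8 alternatives and without each single library.

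The ND-fed WT males had less C1q than the ND-fed WT females, with log2 differences of −1.39, −1.57 and −1.43 for C1qa, C1qb and C1qc (adjusted p = 0.00127, 0.00104 and 0.000246). On CDAHFD the chains were not called between the sexes. The diet effect was larger in males by 1.09, 1.36 and 1.10 in WT mice, which was not called (adjusted p = 0.259, 0.174 and 0.174). Without the ND-fed WT male replicate 3 the differences were 1.68, 1.92 and 1.57 and all 3 were called, as they were without the low-count filter (adjusted p at most 0.000294). Across the 7 alternatives that kept all WT libraries the differences stayed at 1.06 to 1.16, 1.33 to 1.42 and 1.07 to 1.17. The calls without the filter thus came with smaller p-values and little change of the differences. In Cyp2b-null mice the differences were 0.87, 1.36 and 1.01 and not called (adjusted p = 0.231, 0.0823 and 0.108), but all 3 were called without the filter, and C1qb and C1qc in the fit of only the groups compared. The ND-fed WT male replicate 3 had a summed C1q level of 134 CPM, against 31.3 CPM in replicate 4.

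Macrophage markers moved with C1q. Of 20 markers of macrophages and Kupffer cells (Lyz2, Mpeg1, Cd5l and Ctss had the highest levels) 19 were tested, and 15 rose and 2 fell in WT females, 15 and 1 in Cyp2b-null females, and 17 and 1 in males of either genotype. Their median log2 change was 1.34 in WT females and 3.06 in WT males. Trem2 was at 0 in all 32 libraries. The summed level of the list was 609 to 905 CPM in ND-fed and 1390 to 1740 CPM in CDAHFD-fed WT females, and 280 to 490 CPM against 1280 to 2290 CPM in WT males. The summed level of C1q was 151 to 228 CPM and 311 to 462 CPM in the same female groups, and 31.3 to 134 CPM and 188 to 431 CPM in the male groups. In Cyp2b-null females C1q summed to 132 to 228 CPM on ND and 358 to 700 CPM on CDAHFD, where the markers were at 529 to 850 CPM and 1450 to 2150 CPM. In Cyp2b-null males C1q summed to 64.7 to 74.6 CPM on ND and 316 to 482 CPM on CDAHFD, where the markers were at 299 to 388 CPM and 1660 to 2650 CPM. The CDAHFD-fed Cyp2b-null female replicate 3 had the highest C1q sum of all libraries (700 CPM) and the highest marker sum of its group (2148 CPM). The part of the macrophage markers in the C1q result was not tested.

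**Figure D4:**
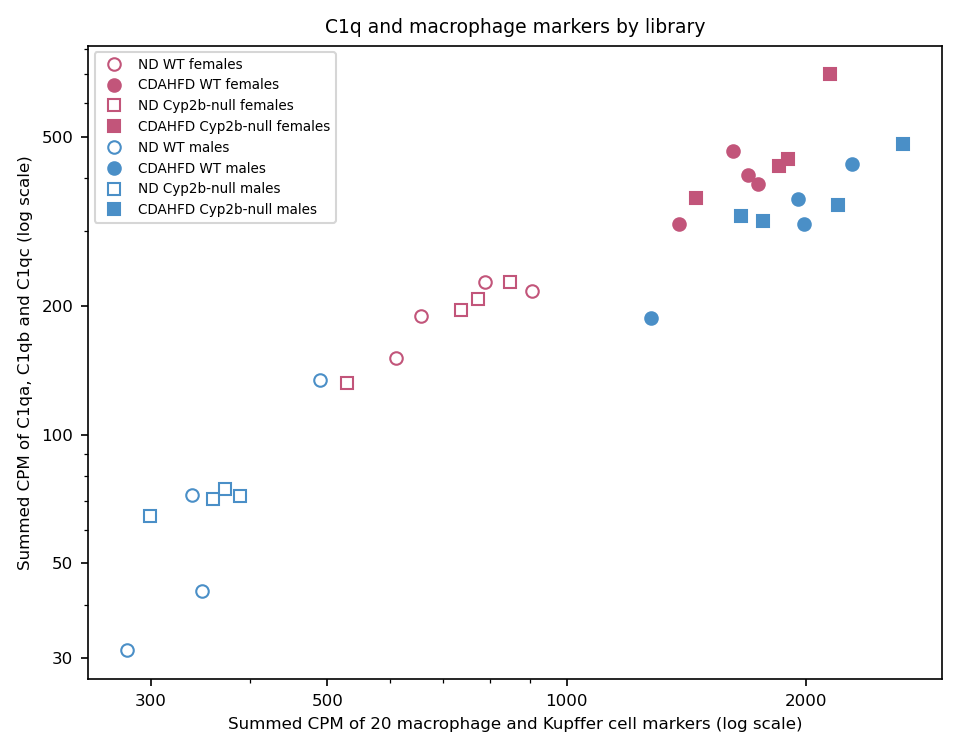
Summed CPM of C1qa, C1qb and C1qc (y axis, log scale) against the summed CPM of 20 macrophage and Kupffer cell markers (x axis, log scale) in the 32 libraries, WT circles, Cyp2b-null squares, females pink, males blue, ND open and CDAHFD filled. On the marker axis ND-fed males lie lowest, ND-fed females next, and CDAHFD-fed libraries highest. On the C1q axis these sets overlap at their edges. ND-fed males run from 31.3 to 134 CPM, ND-fed females from 132 to 228 CPM and CDAHFD-fed libraries from 188 CPM up, with 1 Cyp2b-null female at 700 CPM.

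The proteases that C1q carries were not called higher in any diet comparison with the trimmed-mean scaling. C1ra and C1s1 encode the serine proteases C1r and C1s. C1s1 went from 591 ± 26.6 to 458 ± 87.3 CPM in WT males (SD, n = 4; −0.37, SE 0.123, adjusted p = 0.0265) and changed by −0.42 in Cyp2b-null males (adjusted p = 0.0103), and C1ra was called only in Cyp2b-null males (−0.34, adjusted p = 0.0273). In WT females the changes were 0.08 for C1s1 and −0.05 for C1ra, neither called. With scaling by library size C1ra (0.28, adjusted p = 0.0389) and C1s1 (0.40, adjusted p = 0.0127) were called higher in WT females, and C1s1 turned sign in WT males and C1ra in Cyp2b-null males. C1ra shares 50.8% of its 50-base stretches with other genes, mainly its copy C1rb, and C1s1 shares 24.3%, mainly with C1s2, so both counts are uncertain.

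In the lectin pathway Mbl2 fell most. Mbl2 (chr19:30232906-30239687) encodes mannose-binding lectin C, a secreted sugar-binding protein. It read 682, 833, 741 and 665 CPM in ND-fed and 391, 326, 392 and 350 CPM in CDAHFD-fed WT females, a log2 change of −0.98 (SE 0.146, adjusted p = 4.06e-05). The WT males read 383, 340, 382 and 386 CPM and 160, 183, 125 and 109 CPM (−1.37, SE 0.176, adjusted p = 3.98e-06). Neither sex overlapped between diets, and the CDAHFD-fed females were at the level of the ND-fed males. Mbl2 was lower in males than in females on ND by 0.97 on the log2 scale (adjusted p = 9.16e-05). In Cyp2b-null mice it went from 697, 632, 741 and 669 CPM to 399, 439, 616 and 366 CPM in females (−0.57, adjusted p = 0.00543) and from 469, 341, 363 and 399 CPM to 195, 126, 104 and 128 CPM in males (−1.51, adjusted p = 8.95e-07). The sex difference of its diet effect in Cyp2b-null mice was lost when the 2 libraries absent from the study's heat maps (replicate 3 of the CDAHFD-fed null females and replicate 4 of the males) were left out (adjusted p = 0.118). It was also lost without ND-fed female replicate 2, CDAHFD-fed female replicate 3 or CDAHFD-fed male replicate 3 (adjusted p up to 0.0727).

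Masp2, the protease that mannose-binding lectins activate, fell in all 4 comparisons, by 0.39 in WT females (adjusted p = 0.0188), 0.43 in Cyp2b-null females, 0.53 in WT males (adjusted p = 0.00461) and 0.55 in Cyp2b-null males. With scaling by library size Masp2 was called in none of them (−0.06 to −0.19). Mbl1, the gene of mannose-binding lectin A, was called only in males, from 268 ± 28.8 to 183 ± 40.8 CPM in WT (SD, n = 4; −0.55, adjusted p = 0.00494) and by 0.54 in Cyp2b-null mice (adjusted p = 0.0046). Its sex difference of the diet effect was not called (adjusted p = 0.796 in WT and 0.0984 in Cyp2b-null mice). Masp1 was not called in any diet comparison with the trimmed-mean scaling. Scaled by library size, Masp1 was called higher in Cyp2b-null males (0.488, adjusted p = 0.00984). The male changes of Mbl1 then lost their calls (−0.17 in WT and −0.18 in Cyp2b-null mice, adjusted p = 0.256 and 0.222). The gene spans of Masp1 and Masp2 overlap those of Rtp4 and Tardbp.

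With the trimmed-mean scaling few of the convertase genes were called. C3, the central component whose cleavage all 3 pathways share, had the highest level per kilobase of exon of all members in ND-fed WT females (2110 CPM per kilobase). It read 10160, 12750, 8938 and 11440 CPM there and 8956, 8570, 11640 and 10940 CPM on CDAHFD, which overlap (−0.08, adjusted p = 0.708). In Cyp2b-null males C3 went from 13220, 8521, 8474 and 8543 CPM to 15140, 12780, 12620 and 13390 CPM (0.48, SE 0.190, adjusted p = 0.0528). The ND-fed replicate 1 alone lay inside the CDAHFD range, and without it the change was 0.66 and called. C3 was also called in 6 of 8 alternatives (adjusted p down to 0.000419). C4b and Cfb, which supply further subunits of the convertases, were not called in any of the 4 diet comparisons with the trimmed-mean scaling. Scaled by library size, Cfb was called higher in WT males (0.32, adjusted p = 0.0312) and Cyp2b-null males (0.35, adjusted p = 0.0208). C4b was then called higher in Cyp2b-null females (0.52, adjusted p = 0.0315) and C3 in WT males (0.56, adjusted p = 0.0111). Cfi, the protease that inactivates C3b and C4b, was called only in Cyp2b-null males (−0.40, adjusted p = 0.042). This call was lost with scaling by library size (−0.051, adjusted p = 0.748).

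C2, the protease of the classical convertase, rose in Cyp2b-null females alone among the diet comparisons with the trimmed-mean scaling. It read 25.4, 22.6, 25.4 and 21.1 CPM on ND and 35.7, 40.5, 39.1 and 33.9 CPM on CDAHFD without overlap (0.69, SE 0.141, adjusted p = 0.000856). In WT females it read 28.4, 27.9, 36.7 and 39.8 CPM and 33.9, 38.5, 31.9 and 33.4 CPM, which overlap (0.07, adjusted p = 0.766). The difference of these diet effects between the genotypes was not called (0.62, SE 0.198, adjusted p = 0.76). Scaled by library size, C2 was called higher in WT females (0.393, adjusted p = 0.0415) as well as in Cyp2b-null females (0.945, adjusted p = 4.52e-05). C2 and Cfb share 58% and 81.4% of their 50-base stretches with other genes, mainly the read-through gene Gm20547. No counted gene overlapped C2, and only Mir6972 overlapped Cfb. Whether the shared stretches affected the counts of C2 and Cfb was not tested. C4b shares 35.2%, mainly with C4a, so its counts are uncertain.

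Cfd, the protease that activates factor B, was hardly present in females and varied among males. The 16 female libraries had 0 counts except 1 CDAHFD-fed WT library with 1 count and 1 CDAHFD-fed Cyp2b-null library with 3. In ND-fed WT females a count of 0 allows up to 0.517 to 1.15 CPM per library (3 counts, counting error only). The 4 ND-fed WT males had 14, 19, 14 and 0 counts, or 2.57, 3.14, 1.92 and 0 CPM, and the 4 CDAHFD-fed WT males had 1, 1, 3 and 0 counts. The 4 ND-fed Cyp2b-null males had 28, 145, 32 and 71 counts, or 3.11, 33.0, 6.74 and 15.7 CPM, and the CDAHFD-fed ones had 5, 1, 0 and 1 counts. Cfd was called lower on CDAHFD in WT males (adjusted p = 0.0308, overlapping groups, lost in 6 of 8 fits without 1 library) and in Cyp2b-null males (adjusted p = 1.41e-05, no overlap). No fold is given, since several libraries lie at or under 3 counts. Of 8 adipocyte markers 4 were tested in males, and 2 rose (Cidec and Fabp4) and 1 fell (Car3) in each genotype. Their summed level was 5440 to 6670 CPM in ND-fed and 1610 to 4220 CPM in CDAHFD-fed WT males, 4690 to 6060 CPM and 1320 to 1840 CPM in Cyp2b-null males, and 1620 to 2430 CPM in ND-fed WT females. Nearly all of this sum was Car3 (carbonic anhydrase 3, which hepatocytes express too), with 5436 to 6664 CPM in ND-fed and 1582 to 4192 CPM in CDAHFD-fed WT males. Lep was at 0 in all libraries and Retn in all male libraries, and Adipoq in the ND-fed Cyp2b-null males was at 0.11, 0.46, 0 and 0.22 CPM. The part of adipose tissue in the Cfd values was not tested.

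The 3 fibrinogen chains fell together. Fga, Fgb and Fgg encode the alpha, beta and gamma chains of fibrinogen, which is cleaved to form the clot, and lie in 1 cluster on chromosome 3 (Fgg chr3:83007724-83015056, Fga chr3:83026153-83033627, Fgb chr3:83042246-83049863). The stretches before their starts (RefSeq, GRCm38.p6) are shown because the 3 genes are known for a shared acute-phase control through IL-6 and hepatocyte factors. They are chr3:83025903-83026075 of the plus strand for Fga, chr3:83049864-83050113 of the minus strand for Fgb and chr3:83007474-83007723 of the plus strand for Fgg. Capitals mark CTGGGA (the core of the IL-6 response element), GTTAAT and TTCNNNGAA on either strand.
Fga: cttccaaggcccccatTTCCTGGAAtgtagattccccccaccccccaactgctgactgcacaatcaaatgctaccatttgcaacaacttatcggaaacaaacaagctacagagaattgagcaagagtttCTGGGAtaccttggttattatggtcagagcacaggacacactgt
Fgb: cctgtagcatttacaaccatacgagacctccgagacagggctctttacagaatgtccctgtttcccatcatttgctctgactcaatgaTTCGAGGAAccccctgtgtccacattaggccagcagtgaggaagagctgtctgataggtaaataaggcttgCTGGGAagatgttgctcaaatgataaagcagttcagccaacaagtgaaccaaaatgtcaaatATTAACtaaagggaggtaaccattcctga
Fgg: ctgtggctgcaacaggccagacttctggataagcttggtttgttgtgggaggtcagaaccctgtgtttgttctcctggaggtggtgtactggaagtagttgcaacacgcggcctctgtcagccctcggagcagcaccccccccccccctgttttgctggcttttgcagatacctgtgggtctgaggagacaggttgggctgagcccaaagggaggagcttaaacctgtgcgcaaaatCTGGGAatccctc
CTGGGA stood once in each of the 3 stretches, TTCNNNGAA in those of Fga and Fgb, and GTTAAT in that of Fgb, with no overlap between them. CTGGGA was found in the 250-base windows of 26.8% of all 27025 promoters and of 14 of the 34 members in the table (41.2%). These windows can run past the annotated start, and the Fga stretch was cut to 173 bases. The member counts include a GTTAAT of Fga and a CTGGGA of C8a that the printed stretches do not hold. The shares of members were 23.5% for GTTAAT (8 of 34) and 17.6% for TTCNNNGAA (6 of 34).

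Fgb read 4489, 5970, 4968 and 5264 CPM in ND-fed and 2751, 2866, 2914 and 4848 CPM in CDAHFD-fed WT females, a log2 change of −0.60 (SE 0.182, adjusted p = 0.0184). CDAHFD-fed replicate 4 lay inside the ND range, and without it the change was −0.84. The call was lost without ND-fed replicate 2 or CDAHFD-fed replicates 1, 2 or 3 (adjusted p up to 0.0615). In WT males Fgb went from 5228, 6737, 5593 and 5622 CPM to 3664, 3123, 2576 and 2168 CPM without overlap, a change of −1.005 (SE 0.165, adjusted p = 7.3e-05). In Cyp2b-null mice the changes of Fgb were −0.73 in females (adjusted p = 0.00426) and −0.80 in males (adjusted p = 0.000586), and neither overlapped.

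Fga went from 5060 ± 1150 to 3336 ± 964 CPM in WT females (SD, n = 4; −0.58, adjusted p = 0.0352) and from 5230 ± 318 to 2974 ± 600 CPM in WT males (−0.81, adjusted p = 0.000239). Fgg went from 4136 ± 508 to 2708 ± 766 CPM in WT females (−0.58, adjusted p = 0.0203) and from 4673 ± 286 to 2397 ± 574 CPM in WT males (−0.96, adjusted p = 9.75e-05). The diets overlapped for all 3 chains in WT females and for none of them in the other 3 comparisons. In Cyp2b-null mice the changes were −0.68 and −0.57 for Fga and −0.64 and −0.75 for Fgg in females and males. With scaling by library size the chains stayed below 0 in all 4 comparisons (−0.21 to −0.63), and of the 12 changes 6 were called, namely all 3 chains in WT males, Fgb in Cyp2b-null females, and Fgb and Fgg in Cyp2b-null males.

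Among the vitamin K-dependent factors F7 fell in all 4 comparisons. F7 (chr8:13025506-13035809) encodes factor VII, the short-lived protease that starts clotting with tissue factor. It read 145, 135, 166 and 166 CPM in ND-fed and 74.4, 87.8, 79.9 and 86.4 CPM in CDAHFD-fed WT females (−0.87, SE 0.153, adjusted p = 0.000222). WT males had 121, 137, 124 and 120 CPM and 103, 71.8, 63.4 and 71.7 CPM (−0.69, SE 0.134, adjusted p = 0.000394). The diets did not overlap in either sex, and the changes in Cyp2b-null mice were −0.64 in females and −0.58 in males, the latter not called with scaling by library size (−0.21). F2 (prothrombin) fell from 2195 ± 75.0 to 1544 ± 74.8 CPM in WT females (SD, n = 4; −0.48, adjusted p = 0.00661) and from 2324 ± 73.8 to 1720 ± 247 CPM in WT males (−0.43, adjusted p = 0.0135).

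F10, which forms the prothrombinase with factor V, fell by 0.63 in WT females (adjusted p = 0.00573), 0.51 in WT males (adjusted p = 0.0086) and 0.38 in Cyp2b-null males (adjusted p = 0.0393). Proc, the gene of the anticoagulant protein C, was called in males only, from 879 ± 33.4 to 542 ± 102 CPM in WT (SD, n = 4; −0.70, adjusted p = 0.000494) and by 0.64 in Cyp2b-null mice (adjusted p = 0.000813). F9, the gene mutated in haemophilia B, was called only in Cyp2b-null mice (−0.36 in females and −0.45 in males). The sex difference of the diet effect was not called for Proc. Pros1, the gene of the protein C cofactor protein S, was not called in any diet comparison. The gene span of F2 overlaps that of Ckap5.

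F11, the gene of factor XI, was called higher on CDAHFD in females. It went from 53.3 ± 11.8 to 77.0 ± 12.9 CPM in WT females (SD, n = 4; 0.56, SE 0.191, adjusted p = 0.0354) and changed by 0.57 in Cyp2b-null females (adjusted p = 0.0274), with overlapping groups in both. In males the changes of 0.17 in WT and 0.37 in Cyp2b-null mice were not called (adjusted p = 0.495 and 0.0998), and the sex difference was not called either. With scaling by library size F11 was called higher in all 4 comparisons, Pros1 in WT females (0.45), WT males (0.55) and Cyp2b-null males (0.63), and F5 in males (0.44 in WT, 0.39 in Cyp2b-null mice). F13b, the carrier subunit of the fibrin-crosslinking factor XIII, fell by 0.56 in WT females (adjusted p = 0.00543), 0.58 in Cyp2b-null females and 0.48 in Cyp2b-null males. F12, which starts the contact pathway, was called in males only (−0.36 in WT, −0.41 in Cyp2b-null), and its sex difference of the diet effect was not called. F5, the cofactor of factor X, was called only in Cyp2b-null females (−0.53, adjusted p = 0.0246), from 771 ± 26.2 to 524 ± 125 CPM.

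In the contact and kinin system Klkb1 fell most. Klkb1 (chr8:45266688-45294835) encodes plasma prekallikrein, which frees bradykinin from kininogen. It read 407, 425, 409 and 429 CPM in ND-fed and 294, 274, 277 and 202 CPM in CDAHFD-fed WT females (−0.65, SE 0.138, adjusted p = 0.00136). In WT males it read 648, 812, 541 and 904 CPM and 369, 336, 277 and 282 CPM (−1.20, SE 0.176, adjusted p = 2.11e-05). Neither sex overlapped, and the changes in Cyp2b-null mice were −0.69 in females and −1.02 in males. With scaling by library size the WT female change was −0.33 and not called (adjusted p = 0.0606). Of its 50-base stretches 42.7% are shared, mainly with Gm45753, so its counts are uncertain. Kng1, the kininogen gene, fell in all 4 comparisons (−0.43 to −0.55) and its paralog Kng2 in all but Cyp2b-null males. With scaling by library size neither gene was called in any of them. The kininogen genes share about 18.0% of their stretches with each other.

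**Figure D5:**
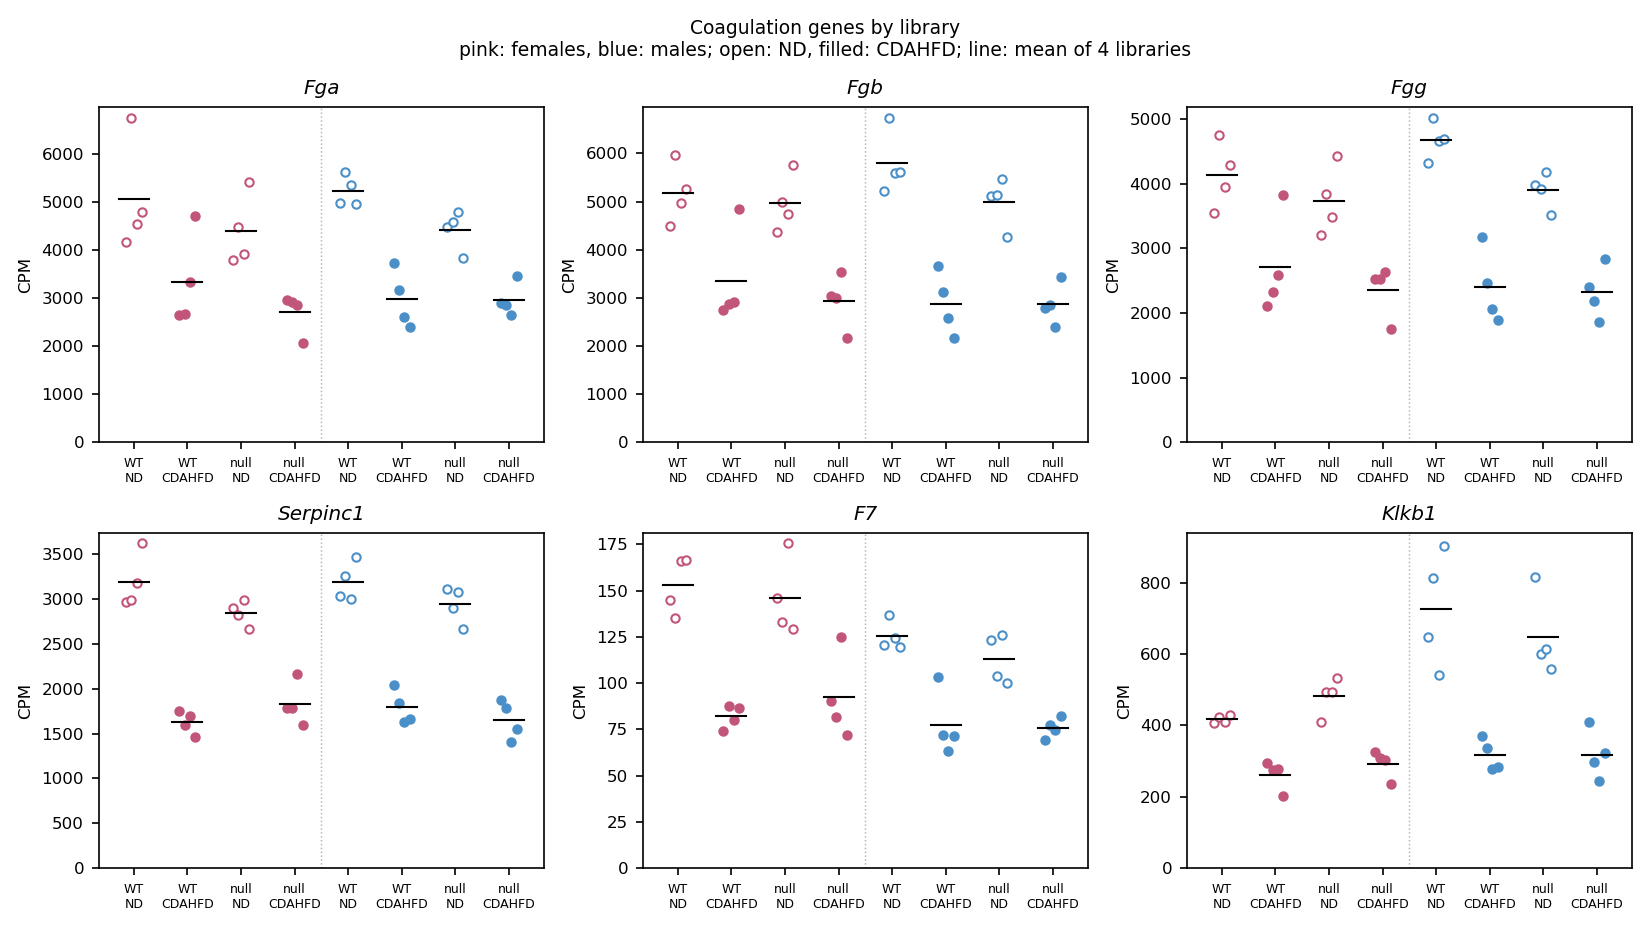
CPM (y axis, from 0) of Fga, Fgb, Fgg, Serpinc1, F7 and Klkb1 in each of the 32 libraries by group (x axis), females pink and males blue, ND open and CDAHFD filled, with a line at the mean of 4 libraries. Serpinc1 falls from between 2667 and 3622 CPM on ND to between 1402 and 2162 CPM on CDAHFD in every group, and 1 CDAHFD-fed WT female stays at the ND level for each fibrinogen chain.

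The inhibitors fell with the factors they hold in check. Serpinc1 (chr1:160978583-161002543) encodes antithrombin, the main inhibitor of thrombin and factor Xa. It read 2962, 2991, 3177 and 3622 CPM in ND-fed and 1756, 1595, 1700 and 1457 CPM in CDAHFD-fed WT females (−0.95, SE 0.123, adjusted p = 8.76e-06). In WT males it read 3037, 3259, 3003 and 3465 CPM and 2041, 1838, 1631 and 1658 CPM (−0.83, SE 0.129, adjusted p = 4.1e-05). The diets did not overlap in either sex, and Serpinc1 also fell in Cyp2b-null females (−0.61) and males (−0.83). Serpind1, the gene of heparin cofactor II, fell in 3 comparisons (−0.33 to −0.37) and had −0.32 in WT males (adjusted p = 0.0562). Serpinf2, the gene of the plasmin inhibitor alpha2-antiplasmin, fell in 3 comparisons (−0.40 to −0.47) and had −0.34 in Cyp2b-null females (adjusted p = 0.0602).

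Plg and Cpb2 act on the clot itself. Plg, the gene of plasminogen, fell from 3069 ± 272 to 1960 ± 115 CPM in WT females (SD, n = 4; −0.62, adjusted p = 0.000577) and from 2984 ± 153 to 2036 ± 406 CPM in WT males (−0.55, adjusted p = 0.00523). Cpb2, which encodes the fibrinolysis inhibitor TAFI, fell from 336 ± 37.1 to 183 ± 13.9 CPM in WT females (−0.85, adjusted p = 7.13e-05) and from 311 ± 34.4 to 178 ± 42.1 CPM in WT males (−0.80, adjusted p = 0.000356). Both also fell in Cyp2b-null mice of each sex. The gene span of Serpind1 overlaps that of Pi4ka, and the spans of Fgg, Hc, Cfi, F5, F11, Klkb1, Serpinf2 and Cpb2 overlap predicted genes. Overlap of the exons was not tested. Vtn, the gene of vitronectin, which blocks the membrane attack complex and stabilises a plasmin activator inhibitor, was called only in WT males (−0.51, adjusted p = 0.0242).

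The genotype left no member past the threshold. On ND 0 of 42 members were called between Cyp2b-null and WT females (background 0.0756%, 10 genes), and 0 of 43 between males (background 0.0371%, 5 genes). On CDAHFD the counts were also 0 in females (background 0.0227%, 3 genes) and 0 in males (background 0.0297%, 4 genes), in edgeR and in DESeq2. An unadjusted p under 0.05 was found for C2 in ND-fed females, Mbl2 and C8g in CDAHFD-fed females, Cfd and C3 in ND-fed males and 0 members in CDAHFD-fed males, and these were picked out with their values in view. The log2 differences of the 39 hepatocyte-made factors lay between −0.51 and 0.31 in ND-fed females, −0.32 and 0.45 in CDAHFD-fed females, −0.41 and 0.18 in ND-fed males, and −0.23 and 0.11 in CDAHFD-fed males. The largest was that of C2 in ND-fed females (−0.51, SE 0.144, adjusted p = 0.543). Cfd in ND-fed males had the smallest adjusted p of these tests (0.124) and was called when no low-count filter was used.

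No member was called for a difference of the diet effect between the genotypes. In females 0 were called (background 0%, where 830 of 13226 genes had an unadjusted p under 0.05), and C2, C8g, Hc and F5 had an unadjusted p under 0.05. In males 0 were called (background 0.00743%, 1 gene), and 0 members had an unadjusted p under 0.05. For the sex difference of the genotype effect on CDAHFD 0 members were called (background 0.00713%, 1 gene), with C8g alone at an unadjusted p under 0.05. DESeq2 called 0 members in each of these comparisons too.

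Other genes of these pathways were counted from lists, beside the shares of all genes given above (13.9% higher and 10.2% lower in WT females, 18.0% and 15.0% in WT males). Of 22 complement regulators 18 were tested, and 1 rose and 7 fell (38.9%) in WT females and 3 rose (16.7%) and 6 fell (33.3%) in WT males. Cfhr2, a factor H-related gene, fell in WT females (−0.85, SE 0.127) and in WT males (−1.002, SE 0.130), and Cd59a, the gene of a membrane inhibitor of C9, fell by 0.58 and 0.96. Of 10 complement receptors 9 were tested, and 6 rose (66.7%) and 0 fell in WT mice of each sex. Itgax and Itgam, the alpha chains of complement receptors 4 and 3, rose by 5.01 (SE 0.310) and 2.64 (SE 0.320) in WT females and by 5.15 (SE 0.339) and 5.39 (SE 0.379) in WT males. C5ar1, the receptor of the C5a fragment, rose by 3.46 (SE 0.394) and 4.73 (SE 0.421). These receptors are carried by macrophages and other leukocytes.

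Of 26 other coagulation genes 21 were tested in females and 22 in males, and 3 rose (14.3%, near the share of all genes) and 5 fell (23.8%) in WT females and 8 rose (36.4%) and 6 fell (27.3%) in WT males. Apoh, a liver-made phospholipid-binding glycoprotein, fell by 0.92 (SE 0.133) in WT females and by 0.76 (SE 0.135) in WT males. Of 12 other fibrinolysis genes 10 were tested, and 8 rose (80%) in WT mice of each sex, with 0 falling in females and 1 in males. Plaur, the urokinase receptor, rose by 3.66 (SE 0.489) in WT females and by 4.40 (SE 0.499) in WT males. Of 20 acute-phase genes 19 were tested, and 7 rose (36.8%) and 1 fell (5.26%) in WT females and 8 rose (42.1%) and 4 fell (21.1%) in WT males.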

How the data were processed

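Liver RNA from 32 mice (8 groups, n = 4) was sequenced, and the raw counts per gene deposited by the authors, 1 table for each sex, were used. The authors' processing notes name FastQC, Trimmomatic, GSNAP, Subread and edgeR on GRCm38.p6, and RNA was extracted with TRIzol. Versions, strand and the treatment of reads that map more than once are not given in the sources used here. The counts were whole numbers with totals of 2906411 to 10166959, and 0 columns were left unused.

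Genes with low counts were removed with filterByExpr (smallest count 10, smallest total 15) and counts were TMM-scaled. Each sex was fitted on its own with its 4 groups (13226 genes in females, 13460 in males) by edgeR's quasi-likelihood method (version 4.0.16 under R 4.3.3), and sex contrasts used all 8 groups (14020 genes). P-values were two-sided and Benjamini-Hochberg adjusted over all genes tested, with a threshold of 0.05. No source ties the libraries to separate extractions or batches, so p-values measure the spread between these libraries. Printed CPM are TMM-scaled and come from the fit of 8 groups. Alternatives were DESeq2 1.42.0, RLE scaling, scaling by library size, no filter, only the groups compared, both sexes in 1 fit, a block for the replicate number, and fits with libraries left out.

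The members and all gene lists were chosen with earlier results of these data known. Every member could be named. Library values are given for C1q and for the hepatocyte-made members with the 3 largest called rises and falls of the WT diet effect in each sex, and for up to the 6 largest in the sex contrasts, with further members after their values were seen. Pathway genes were named by the 4 largest rises and 4 largest falls among those called in both sexes with at least 1 CPM, and 1 gene that this rule names is not reported here. Shared sequence was the share of 50-base stretches of a gene's exons found in another gene. On simulated data for the WT diet comparison, the test called 22.4% of genes changed 1.5-fold and 62.7% of genes changed 2-fold in females (13226 genes), and 20.9% and 52.2% in males (13460 genes). Promoters were in the RefSeq table for 34 of the 43 members.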

Additional observations from a re-analysis of the deposited data

Results flagged for a closer look

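Of 142 groups of 4 libraries examined for the members with values in every library, 10 held a library far from the other 3, where chance flags about 1 in 20 groups. CDAHFD-fed WT female replicate 1 had 114 CPM of C1qc (others 154 to 159). ND-fed Cyp2b-null male replicate 3 had 434 CPM of C8b (others 372 to 374), and replicate 1 had 13220 CPM of C3 (others 8474 to 8543). ND-fed WT male replicate 2 had 340 CPM of Mbl2 (others 382 to 386) and 1482 CPM of Hc (others 991 to 1038). CDAHFD-fed Cyp2b-null female replicate 4 had 2076 CPM of Fga (others 2854 to 2967) and 1755 CPM of Fgg (others 2530 to 2636). CDAHFD-fed WT female replicate 4 had 4848 CPM of Fgb (others 2751 to 2914). Cfd had 0.362 CPM in CDAHFD-fed Cyp2b-null female replicate 4 and 0.219 CPM in CDAHFD-fed WT female replicate 1, where the other 3 libraries had 0.

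The diet effect differed between the sexes by a test of the difference itself (edgeR, fit of 8 groups). In WT mice the effect in males minus that in females was −2.81 for C6, −2.09 for C8a, −1.52 for C8b and −1.41 for C9 on the log2 scale. In Cyp2b-null mice the differences were −2.64 for C6, −1.43 for C9, −1.34 for C8a, −1.16 for C8b, −0.92 for Mbl2 and −0.79 for C2.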

How the results depend on the processing

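A tally of single genes covered only C1qa, C1qb, C1qc, C2, C3, C6, C8a, C8b, C9, Cfd, F7, Fgb, Hc, Klkb1, Mbl2 and Serpinc1. Of their 2204 values recomputed under the alternatives, 2076 kept their direction and side of the threshold, 66 lost a call and 36 gained one. A further 26 moved without a call, and 0 turned sign as calls. The members whose sign turned with scaling by library size (C1s1, F12, Kng2, C1ra and Serpind1) were not in this tally. The count of members with a sex difference of the diet effect in Cyp2b-null mice was 6, and 10 with DESeq2 and 11 without the low-count filter; the count in WT mice was 4, and 7 without the filter. In Cyp2b-null males 32 members were called for diet, and 19 with scaling by library size. Between ND-fed genotypes of males 0 were called, and 1 (Cfd) without the filter. Between the sexes on CDAHFD 7 were called in WT mice, 4 with the replicate block and 2 in the fit of only the groups compared. Leaving out single libraries gave 0 to 1 members for genotype in ND-fed males (1 without ND-fed Cyp2b-null replicate 1), 4 to 7 for the sex difference of diet in WT (7 without ND-fed WT male replicate 3) and 4 to 8 in Cyp2b-null mice, and 2 to 7 between the sexes on CDAHFD. The cause was not tested.

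The deviations of libraries with the same replicate number were weakly correlated (−0.169 to 0.281). These correlations cannot settle whether the numbers pair the mice, and no pairing was used in the main fits. Apart from the count of 4 above, the replicate block kept every count of members called within 1.5 times. In the simulation most 1.5-fold changes were missed, but it changed only 66 or 67 genes for each fold. In the data 3193 genes were called for diet in WT females. The simulation thus does not give the share of changes missed among the members, and Masp2 was called at a smaller change (−0.39 in WT females). The low counts of Cfd allow no fold.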
